A study of Mus musculus with 12 samples.

Results

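The miR-143 and miR-145 microRNAs were examined as 4 mature sequences, miR-143-3p, miR-143-5p, miR-145a-5p and miR-145a-3p, out of 616 mouse microRNAs listed in the data. They were taken by name from a family chosen with earlier results of these data in view, and no threshold on their values entered the choice. Small RNAs had been sequenced on a MiSeq instrument from the gonads of CD1 mouse embryos aged 11.5 embryonic days (E11.5), 12.5 days (E12.5) or 13.5 days (E13.5). The 12 libraries comprised primordial germ cells (PGC), which later give rise to eggs and sperm, together with gonadal somatic cells (SC), from female and male embryos on each of the 3 days. There was 1 library per condition, 6 per cell type. No genotype or treatment set the groups apart. According to the labels, each fraction came from a group of about 80 gonads whose mesonephros had been removed. PGC were retained on a magnetic column by anti-CD15 beads, and SC were the cells left over, so the SC libraries hold every other cell type of the gonad. The labels give an enrichment of 93 to 96% for PGC and a purity of over 90% for SC, judged by a stain. Every test below therefore measures the spread between these 12 libraries and not between repeated isolations.

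miR-143 and miR-145 are processed from neighbouring hairpins that are usually transcribed together with a long non-coding host RNA. They are best known from smooth muscle, pericytes and other mesenchymal cells, where serum response factor and myocardin drive their transcription and where the transcription factors Klf4 and Klf5 are among the described targets. Each hairpin yields a dominant strand, miR-143-3p and miR-145-5p, which enters Argonaute, and a passenger strand that is mostly degraded. Both hairpins were placed from RefSeq on GRCm38.p6, the build family of the deposited data. Mir143 lies at chr18:61649196-61649258 and Mir145a at chr18:61647825-61647894, with 1301 bases between them, and both lie inside the long non-coding RNA gene Carmn (chr18:61645878-61665538). A related hairpin, Mir145b, lies far from them at chr18:69022199-69022273. It was listed at 0 in 9 of the 12 libraries and had 5 or 6 reads in the other 3, all SC, so it is not described further.

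Values are given on both available scales. The deposited scale is the authors' normalized count, whose library sums were not evened out. The sum was 105730 in the shallowest library (female E12.5 PGC) and 2.16e+06 in the deepest (female E11.5 SC). Their 166804 and 1768825 reads had been divided by size factors of 1.58 and 0.820, which widened the gap between them. Size factors were 1.08 to 1.58 in PGC and 0.614 to 1.15 in SC, so the deposited scale lowered PGC values the more. RPM are the recovered reads of a microRNA per 1e+06 microRNA reads of its library, called equal totals below. Library size ran from 166804 to 1221211 reads in PGC and from 611229 to 1768825 in SC, and the smallest were the pair of E12.5 PGC libraries. No value stood for fewer than 5 reads, so a 0 means under 5 reads, which is under 29.98 RPM in the shallowest library and under 2.83 RPM in the deepest. The choice of scale matters for any comparison of the cell types, because the median log2 difference between PGC and SC over 513 tested microRNAs was -2.57 as deposited and -0.74 at equal totals.

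The cell type labels were checked against a germ-cell list of 12 microRNAs from the miR-290 and miR-302 clusters, which are abundant in pluripotent and germ cells. Their summed level was 67680 to 136936 RPM in 5 of the 6 PGC libraries and 516 to 5813 RPM in SC. Within SC the E13.5 libraries held 3363 (female) and 5813 RPM (male), and the earlier ones 516 to 775 RPM. The library labelled PGC female E11.5 held 2694 RPM, inside the SC range only through those of E13.5, and against its label. The fitted comparisons of PGC, the ratio tests, the counts of marker lists and the likeness of other microRNAs are given with and without it. Single ratios at E11.5 rest on this library wherever they are of PGC females.

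miR-143-3p was among the most abundant microRNAs of the somatic fraction. In SC it had 56794 RPM in the female and 47519 RPM in the male library at E11.5, 25568 and 32949 RPM at E12.5, and 35559 and 22655 RPM at E13.5. It ranked between the third and the ninth place of the 616 microRNAs in every SC library. In PGC it had 43978 RPM (female) and 31065 RPM (male) at E11.5, 4215 and 3252 RPM at E12.5, and 11119 and 3271 RPM at E13.5. The E11.5 PGC libraries lay inside the range of SC, at places 4 and 5, and the later 4 lay below all SC libraries, at places 25 to 54. The 4 members together took 3.94% ± 1.36 of the microRNA reads in SC and 1.74% ± 1.82 in PGC (SD, n = 6 each), and miR-143-3p alone made up 90.4 to 95.0% of the members' reads in SC.

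miR-145a-5p, the dominant strand of the other hairpin, was an order of magnitude less abundant. In SC it had 2328 RPM (female) and 3167 RPM (male) at E11.5, 2287 and 1754 RPM at E12.5, and 1916 and 1367 RPM at E13.5. In PGC it had 2213 and 1333 RPM at E11.5, 1541 and 277 RPM at E12.5, and 488 and 171 RPM at E13.5. Here the female E11.5 and female E12.5 PGC libraries lay inside the SC range, and the other 4 lay below it.

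Both passenger strands were read far below the dominant ones in SC. miR-143-5p had 347 (female) and 296 RPM (male) at E11.5, 143 and 122 RPM at E12.5, and 203 and 193 RPM at E13.5 in SC. In PGC it had 239 and 243 RPM at E11.5, fell under the 5-read floor in both E12.5 libraries, and had 53.5 and 30.6 RPM, from 23 and 12 reads, at E13.5. miR-145a-3p had 344 and 214 RPM at E11.5, 277 and 263 RPM at E12.5, and 300.0 and 129 RPM at E13.5 in SC. In PGC it had 321 and 187 RPM at E11.5, 48.0 and 27.1 RPM (8 and 5 reads) at E12.5, 41.8 RPM (18 reads) in the female at E13.5 and under 5 reads in the male. For both strands the E11.5 PGC libraries sat within the SC range and all later PGC libraries below it.

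**Figure D1:**
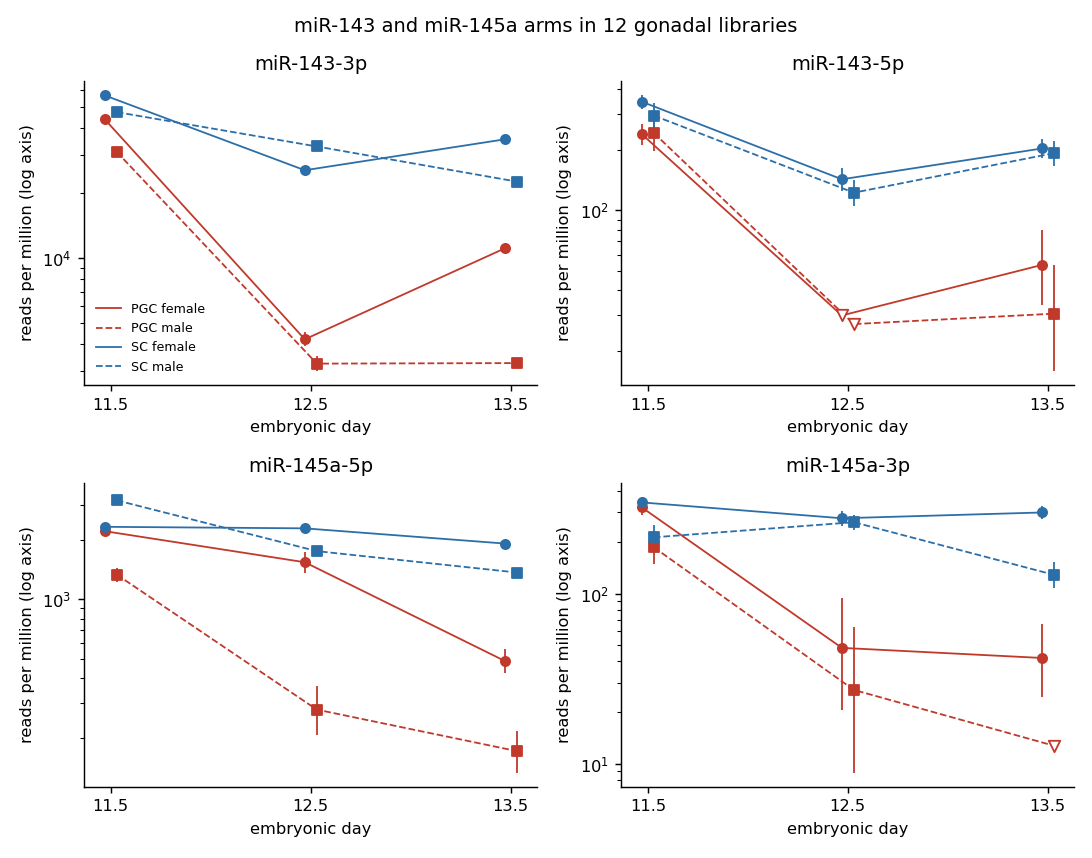
Level of each member in RPM (log axis) against embryonic day, with PGC in red, SC in blue, females as circles with solid lines and males as squares with dashed lines. Vertical bars are exact 95% counting intervals, and open triangles mark the 5-read floor of libraries in which the member was listed at 0. At E11.5 PGC and SC levels of miR-143-3p lie within 31065 to 56794 RPM, and from E12.5 on every PGC library lies below every SC library.

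PGC were compared with SC over the 6 pairs of libraries of the same day and sex to ask whether the members mark the somatic cells. All 4 members were lower in PGC, on both scales. The comparison was fitted with limma with the pair as a block. The deposited miR-143-3p value was 39481, 11482, 446, 479, 4327 and 1183 in PGC and 122564, 33036, 38808, 45561, 52305 and 38306 in SC (by day, female before male). The female E11.5 PGC library alone exceeded the lowest SC library. The fitted log2 difference was -4.13 ± 0.71 (SE, adjusted p = 0.000227, lower in 6 of 6 pairs) as deposited and -1.90 ± 0.41 (adjusted p = 0.00782) at equal totals, which correspond to 17.5-fold and 3.73-fold lower levels.

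miR-145a-5p was lower by a similar amount. Its values overlapped in RPM, at 171 to 2213 in PGC and 1367 to 3167 in SC. On the deposited scale they were 40.8 to 1986 in PGC and 2202 to 5024 in SC. The log2 difference was -3.81 ± 0.68 (SE, adjusted p = 0.000227, limma) and at equal totals -1.59 ± 0.40 (adjusted p = 0.0137), with 6 of 6 pairs lower in PGC. miR-143-5p differed by -4.45 ± 0.81 and miR-145a-3p by -4.54 ± 0.81 (both adjusted p = 0.000227), and at equal totals by -3.24 ± 0.97 (adjusted p = 0.0272) and -2.64 ± 0.82 (adjusted p = 0.0299). These 2 sizes depend on the added 1, because the strands were listed at 0 in 2 and 1 PGC libraries. With the zeros put at the 5-read floor, their unfitted mean log2 ratios were -3.87 and -4.28, and -1.64 and -2.05 at equal totals. The members' median was then -4.00, and -1.77 at equal totals.

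A lower level in PGC was the rule rather than the exception on the deposited scale. Of the 513 tested microRNAs, 77.2% passed as lower in PGC as deposited and 25.5% at equal totals, against 4 of 4 members on each. The deposited share is so high that the members' count there says little about them. By size of decrease at equal totals miR-143-3p took place 113 and miR-145a-5p place 155 of 513. miR-143-5p and miR-145a-3p took places 24 and 50 through their zeros, and with these at the floor their mean ratios would stand at places 150 and 99. Those places are among the fitted changes of the other microRNAs, whose zeros were not put at the floor. Without the female E11.5 PGC library all 4 members passed on both scales, with log2 differences of -4.30 to -5.17, and -1.89 to -3.79 at equal totals. Without both E12.5 PGC libraries all 4 passed on the deposited scale, whereas at equal totals none did, at -1.34 to -2.53 (adjusted p = 0.132 to 0.181), and the microRNAs passing in either direction numbered 17 in place of 200. Leaving out single libraries also cost calls at equal totals. Without either E12.5 male library 1 member passed, without either E12.5 female or either E13.5 male library 2 passed, and without either E13.5 female library 3 passed, miR-143-3p in each case among them.

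The size of the difference depended on the day. For the 4 members summed, the PGC level as a fraction of the SC level in RPM was 0.782 in the female and 0.641 in the male pair at E11.5, then 0.205 and 0.101 at E12.5, then 0.308 and 0.143 at E13.5. The largest gap was that of the E12.5 males. The female E11.5 fraction rests on the PGC library whose germ-cell microRNAs lay in the SC range. On the deposited scale the same fractions were 0.325 and 0.341, 0.0143 and 0.0108, and 0.0815 and 0.0305, in the same order. In pooled cells, fewer cells of a type and less RNA per cell cannot be told apart.

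Markers of other cell types were set beside these ratios. The mesenchymal list (miR-199a, miR-199b and miR-214, 6 microRNAs of connective tissue) had ratios near those of the members. Its summed PGC level was 0.711 (female) and 0.702 (male) of the SC level at E11.5, then 0.217 and 0.115 at E12.5, then 0.222 and 0.108 at E13.5. It ranged from 6253 to 50504 RPM in PGC and from 47720 to 89194 RPM in SC. All 6 were detected in each of the 12 libraries, and 6 of 6 passed as lower in PGC on both scales. Its part in the members' difference was not tested.

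The endothelial pair, miR-126a-3p and miR-126a-5p, had ratios of 1.39 (female) and 0.925 (male) at E11.5, then 0.264 and 0.141 at E12.5, then 0.320 and 0.420 at E13.5. Its sum was 4670 to 51442 RPM in PGC and 16088 to 37105 RPM in SC. Both of its microRNAs passed as lower in PGC on the deposited scale and 1 of them at equal totals. The 8-member muscle list other than miR-143 and miR-145, of which 6 were tested, passed as lower for 6 of 6 microRNAs as deposited and for 1 of 6 at equal totals, the striated-muscle microRNA miR-1a-3p (-4.09 ± 1.19 at equal totals, SE, adjusted p = 0.0250). Its summed ratio ran from 0.298 to 1.62 and was 0.968 (female) and 1.62 (male) at E13.5. At E13.5, 3 (female) and 4 (male) of its 7 listed microRNAs were at 0 in PGC, and 1 and 3 in SC. The sum thus rests on the others and does not stand for every microRNA of the list. The list also holds miR-21a-5p, at -0.36 ± 0.33 at equal totals (SE, adjusted p = 0.382, limma). The 5 erythroid microRNAs passed as lower 5 of 5 times as deposited and 0 of 5 times at equal totals, and both gonadal somatic miR-202 strands passed as deposited and 1 at equal totals. In the germ-cell list 8 of 11 tested microRNAs were higher in PGC and 2 lower on the deposited scale, and 9 higher and 0 lower at equal totals, beside 7.02% and 13.5% of all tested microRNAs passing as higher. With the female E11.5 PGC library left out, the counts on the deposited scale were the same but for the erythroid list (4 of 5), and at equal totals 2 of 2 endothelial, 2 of 6 muscle, 2 of 5 erythroid and 2 of 2 miR-202 microRNAs passed as lower. What part these other cell types had in the members' levels was not tested.

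**Figure D2:**
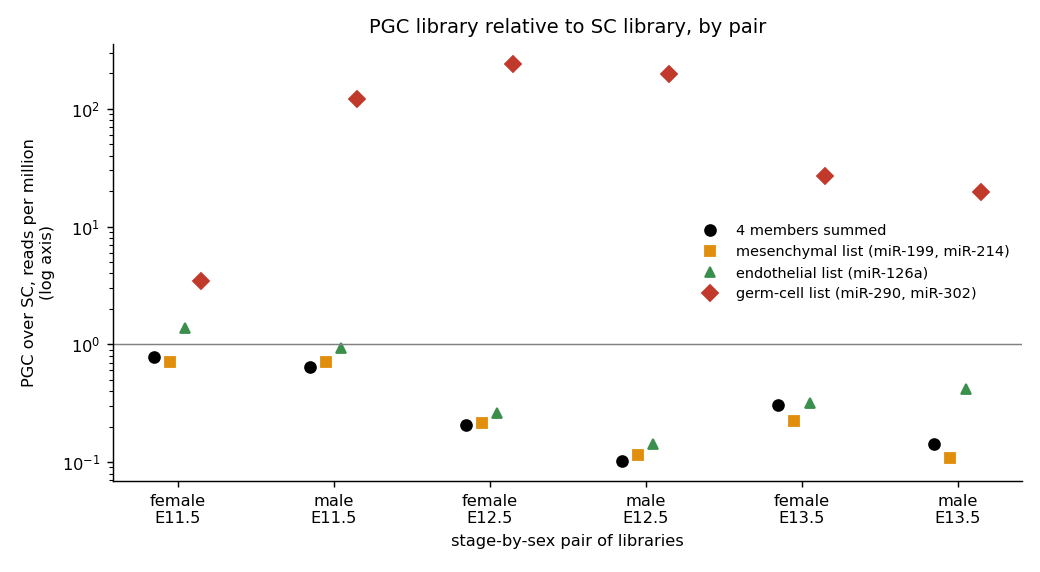
Level in PGC divided by the level in SC, in RPM (log axis), for each pair of libraries of the same day and sex; the grey line marks equal levels. The 4 members summed (black circles) fall from 0.782 and 0.641 at E11.5 to 0.205 and 0.101 at E12.5 beside the mesenchymal list (squares) and the endothelial list (green triangles), while the germ-cell list (diamonds) lies above 1 in all 6 pairs and is lowest, at 3.48, in the female E11.5 pair.

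The days were compared within each cell type in a single limma fit with sex and day as additive terms. In PGC all 4 members fell between E11.5 and E13.5. Counted per sex, miR-143-3p at E13.5 was 3.96-fold lower in females and 9.50-fold lower in males than at E11.5 in RPM, and 9.12-fold and 9.71-fold lower on the deposited scale. The fitted log2 change was -3.23 ± 0.83 (SE, adjusted p = 0.00219) as deposited and -2.62 ± 0.40 (adjusted p = 0.00520) at equal totals. miR-145a-5p changed by -3.18 ± 0.77 (adjusted p = 0.00130) and, at equal totals, by -2.57 ± 0.46 (adjusted p = 0.00721). It was 4.53-fold lower in females and 7.80-fold lower in males in RPM.

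The passenger strands fell with them. miR-143-5p changed by -3.11 ± 0.90 (SE, adjusted p = 0.00551, limma), and by -2.54 ± 0.49 (adjusted p = 0.00906) at equal totals. miR-145a-3p changed by -5.10 ± 0.92 (adjusted p = 2.37e-05), and by -5.23 ± 1.12 (adjusted p = 0.0129) at equal totals. The size of the latter rests on the 0 in the male E13.5 library, and with that value at the floor its mean log2 ratio was -4.03 and -3.41. The members' median on that footing was -3.21, and -2.60 at equal totals, against -0.99 and -0.41 for the median of all fitted changes.

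Of all tested microRNAs, 25.1% passed as lower at E13.5 than at E11.5 in PGC as deposited and 21.4% at equal totals, against 4 of 4 members on each. Without the female E11.5 PGC library, 1 member (miR-145a-3p) passed on the deposited scale, the others at -2.70 to -3.07 with adjusted p = 0.0674 to 0.152, and the microRNAs passing in either direction dropped to 22. At equal totals all 4 members passed without it, at -2.75 to -6.40. At equal totals 3 passed without the male E11.5 or the male E13.5 PGC library. On the deposited scale 1 member passed without the female E13.5 PGC library and 2 without the male E13.5 PGC library.

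The lowest PGC levels of miR-143-3p were reached by E12.5. It was 10.4-fold lower in females and 9.55-fold lower in males at E12.5 than at E11.5 in RPM, with a fitted log2 change of -5.52 ± 0.83 (SE, adjusted p = 3.1e-07, limma) as deposited and -3.32 ± 0.40 (adjusted p = 0.00182) at equal totals. From E12.5 to E13.5 it was 2.64-fold higher in females and 1.01-fold in males in RPM, against 9.71-fold and 2.47-fold higher on the deposited scale. miR-143-5p was at least 7.98-fold lower in females and at least 8.94-fold lower in males at E12.5, its zeros taken as 5 reads per library, and passed on both scales. miR-145a-5p was 1.44-fold lower in females and 4.81-fold lower in males at E12.5, and its fitted changes were -3.58 ± 0.77 (adjusted p = 0.000111) and, at equal totals, -1.39 ± 0.46 (adjusted p = 0.0487). miR-145a-3p passed on the deposited scale at -4.69 ± 0.92 (adjusted p = 3e-05) and not at equal totals at -2.73 ± 1.12 (adjusted p = 0.0958).

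Decreases at this step were common among all microRNAs, with 59.3% passing as lower at E12.5 as deposited and 32% at equal totals, against 4 and 3 of the 4 members. Both E12.5 PGC libraries were also the shallowest of the series, with 599 and 703 reads of miR-143-3p and 5 and 8 reads of miR-145a-3p. Without the female E11.5 PGC library the same counts of 4 and 3 members passed. The equal-totals call of miR-145a-5p was held without the female E11.5 or the female E12.5 PGC library and lost without any 1 of the other 10 libraries (adjusted p = 0.0663 to 0.311).

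In SC no member passed between E11.5 and E13.5. The log2 changes were -0.51 ± 0.83 for miR-143-3p, -0.33 ± 0.90 for miR-143-5p, -0.38 ± 0.77 for miR-145a-5p and -0.10 ± 0.92 for miR-145a-3p (SE, limma, adjusted p = 0.886 to 0.976). At equal totals they were -0.87, -0.69, -0.75 and -0.46 (adjusted p = 0.245 to 0.840), and 0 of 4 had an unadjusted p under 0.05 on either scale. In RPM miR-143-3p was 1.60-fold lower in females and 2.10-fold lower in males at E13.5, and miR-145a-5p 1.22-fold and 2.32-fold lower. The deposited miR-143-3p value of the males was 33036 at E11.5 and 38306 at E13.5, while that of the females was 122564 and 52305. Of all tested microRNAs 2.53% passed as lower as deposited and 1.36% at equal totals. Without the female E11.5 SC library the deposited changes of the 4 members were between 0.01 and 0.75 in the other direction.

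Whether PGC changed more than SC was tested as the difference of both changes from E11.5 to E13.5. On the deposited scale miR-145a-3p passed narrowly, at -5.00 ± 1.30 (SE, adjusted p = 0.0497, limma). The other 3 members had differences of -2.73 to -2.80 and did not pass (adjusted p = 0.152 to 0.213). At equal totals none of the 4 passed, at -1.74 to -4.77 (adjusted p = 0.144 to 0.193), although each had an unadjusted p under 0.05, as did 108 of the 513 microRNAs. Few microRNAs passed as more negative in PGC in this comparison at all, 0.78% (4 of 513) as deposited and 0% at equal totals. The miR-145a-3p call was held without either E13.5 female library (-6.47 and -5.12) and lost without any 1 of the other 10 libraries, at -3.52 to -5.85 (adjusted p = 0.0814 to 0.589), among them the female E11.5 PGC library (-5.07, adjusted p = 0.447).

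The lists of other cell types showed the following in PGC between E11.5 and E13.5. Only microRNAs that passed are counted as fallen or risen. Of the 6 mesenchymal microRNAs, 6 fell as deposited and 5 at equal totals, with a median log2 change of -2.50 and -1.88. miR-199a-3p, their most abundant member, changed by -2.50 ± 0.82 (SE, adjusted p = 0.0151, limma), and by -1.88 ± 0.30 (adjusted p = 0.00549) at equal totals. Both endothelial microRNAs fell on both scales, miR-126a-3p at -2.10 ± 0.32 at equal totals (SE, adjusted p = 0.00520). Of the muscle list 3 of 6 fell on each scale, among them miR-1a-3p at -6.80 ± 0.93, while miR-21a-5p did not pass at -1.05 ± 0.86 (adjusted p = 0.418). Of the 5 erythroid microRNAs 4 fell as deposited and 2 at equal totals. Both miR-202 strands, which are characteristic of the gonadal soma, rose on both scales. Of the germ-cell list 8 rose and 3 fell on the deposited scale, and 0 rose and 3 fell at equal totals. Of all tested microRNAs, 7.80% and 7.41% rose. The median log2 change of the germ-cell list was positive on both scales, at 2.378 as deposited and 2.997 at equal totals. When the female E11.5 PGC library was left out, 1 microRNA of these lists, from the muscle list, fell on the deposited scale and none rose. At equal totals 6 of 6 mesenchymal, 2 of 2 endothelial, 3 of 6 muscle, 0 of 5 erythroid and 2 of 11 germ-cell microRNAs then fell, and 1 miR-202 strand rose. What part the changing mixture of cells had in the members' decrease was not tested.

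**Figure D3:**
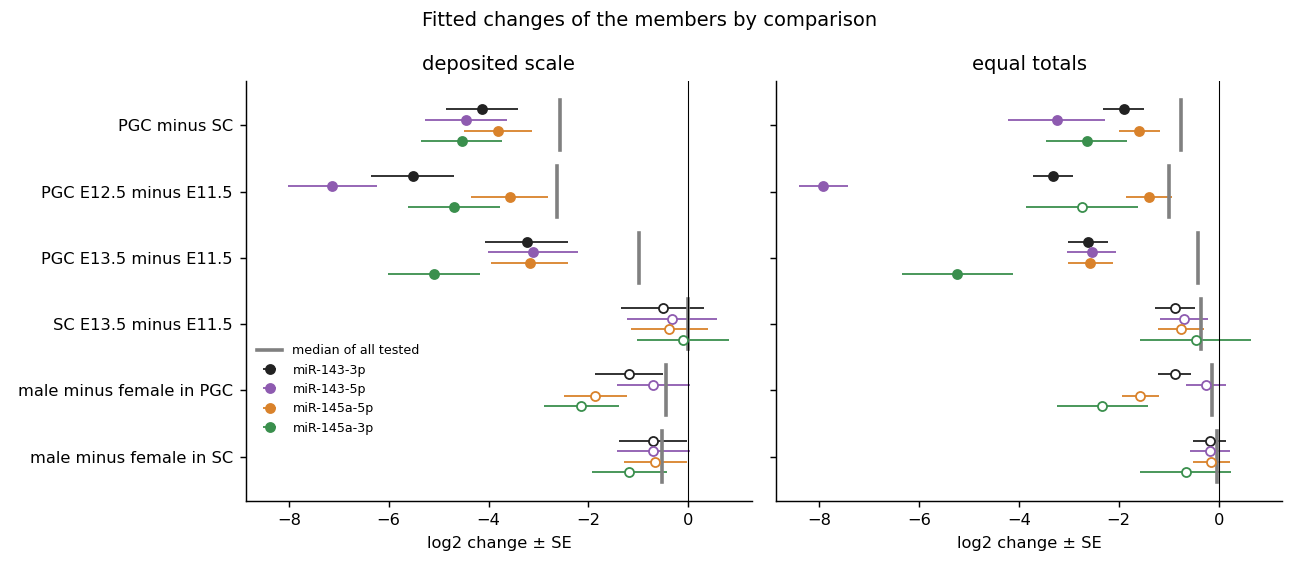
Fitted log2 change ± SE of each member in 6 comparisons, on the deposited scale (left) and at equal totals (right); filled points have an adjusted p under 0.05, open points do not, and grey bars mark the median of all 513 tested microRNAs. Members lie left of the grey bar for PGC against SC and for E13.5 against E11.5 in PGC on both scales, and no member is filled for SC over time or for either sex comparison.

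Males and females were compared within each cell type. In PGC every member had a lower fitted level in males, and none passed. The log2 differences were -1.18 ± 0.68 for miR-143-3p, -0.70 ± 0.74 for miR-143-5p, -1.86 ± 0.63 for miR-145a-5p and -2.14 ± 0.75 for miR-145a-3p (SE, limma, adjusted p = 0.275 to 0.791), and 2 of 4 had an unadjusted p under 0.05. At equal totals they were -0.88, -0.25, -1.57 and -2.33 (adjusted p = 0.233 to 0.781), with 3 of 4 under 0.05 unadjusted. An unadjusted p under 0.05 was reached by 51 of all 513 tested microRNAs as deposited and by 83 at equal totals. Of all tested microRNAs 0.39% passed as lower in males as deposited and 0% at equal totals. miR-145a-5p was higher in females on each day, by 1.66-fold at E11.5, 5.56-fold at E12.5 and 2.86-fold at E13.5 in RPM, and miR-143-3p by 1.42-fold, 1.30-fold and 3.40-fold. On the deposited scale miR-145a-5p was 4.03-fold, 3.99-fold and 3.07-fold higher in females, whereas miR-143-3p was 3.44-fold higher at E11.5, 0.929-fold at E12.5 and 3.66-fold higher at E13.5. Without the female E11.5 PGC library the log2 differences were -0.43 to -2.20 as deposited (limma adjusted p = 0.972 to 1) and -0.39 to -3.11 at equal totals (adjusted p = 0.209 to 0.852).

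In SC no member passed either. The log2 differences were -0.66 to -1.18 on the deposited scale (adjusted p = 0.728 to 0.867, limma) and -0.14 to -0.66 at equal totals (adjusted p = 0.999), with 0 of 4 under 0.05 unadjusted on either scale. The background was 1.17% lower in males as deposited and 0% at equal totals. In RPM the female SC library held 1.20-fold, 0.776-fold and 1.57-fold the male level of miR-143-3p on the 3 days in turn, so the order of the sexes changed between days.

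Ratios of members within a library do not depend on how libraries were scaled. The ratio of miR-143-3p to miR-145a-5p, which compares the dominant strands of the neighbouring hairpins, was 11.2 to 24.4 in SC. In PGC it was 19.9 (female) and 23.3 (male) at E11.5, then 2.74 and 11.7 at E12.5, then 22.8 and 19.1 at E13.5. The female E12.5 PGC library, with 703 reads of miR-143-3p and 257 of miR-145a-5p, stood apart from the other 11 libraries. The same library had 1541 RPM of miR-145a-5p against 277 RPM in its male counterpart, while miR-143-3p was 4215 and 3252 RPM. Over the 6 pairs the log2 ratio was lower in PGC by 0.31 on average (SD 0.96, higher in 3 of 6 pairs), and an exact two-sided paired permutation test gave p = 0.531 (adjusted over 3 ratios 0.797; the smallest p it allows is 0.03125). No difference in this ratio was therefore detectable between the cell types, and the average was 0.03 in the other direction without the female E12.5 pair.

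The dominant and the passenger strand of each hairpin were compared in the same way. miR-143-3p exceeded miR-143-5p by 118- to 269-fold in SC and by 107- to 208-fold in the 4 PGC libraries in which both were read. In the E12.5 PGC libraries the ratio was at least 141 and at least 120. Over 4 pairs the log2 ratio differed by -0.01 (SD 0.27, exact paired permutation p = 1, smallest possible 0.125). miR-145a-5p exceeded miR-145a-3p by 6.39- to 14.8-fold in SC and by 6.89- to 32.1-fold in 5 PGC libraries, and the male E13.5 PGC library gave at least 13.4. The 32.1 belonged to the female E12.5 PGC library and rests on 8 reads of miR-145a-3p. Over 5 pairs the log2 ratio was higher in PGC by 0.48 (SD 1.11, higher in 4 of 5 pairs, exact paired permutation p = 0.4375, adjusted 0.797, smallest possible 0.0625). After removal of the female E11.5 pair the 3 differences were -0.31, -0.07 and 0.60 (exact paired permutation p = 0.6875, 0.75 and 0.5). The passenger share of miR-143 was thus far smaller than that of miR-145a in every library in which both could be read.

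**Figure D4:**
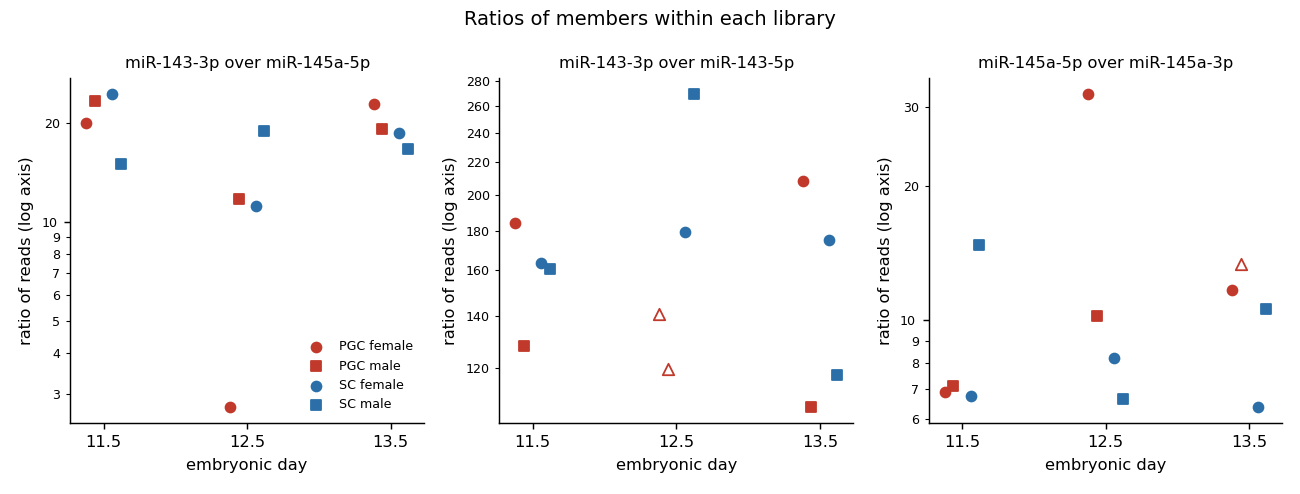
Ratio of reads between members within each library (log axes) against embryonic day, with PGC in red, SC in blue, females as circles and males as squares; open triangles are lower bounds where the denominator was listed at 0. The female E12.5 PGC library lies at 2.74 for miR-143-3p over miR-145a-5p, below the 11.2 to 24.4 of all others, and at 32.1 for miR-145a-5p over miR-145a-3p.

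Set against miR-199a-3p, an abundant mesenchymal microRNA from other loci, miR-143-3p gave a ratio that differed between days in both cell types. Either microRNA can move such a ratio. The ratio of miR-143-3p to miR-199a-3p at E11.5 was 1.93 (female) and 2.42 (male) in PGC and 2.37 and 3.12 in SC. At E12.5 it was 0.547 and 0.811 in PGC and 0.714 and 0.986 in SC, whereas at E13.5 it was 1.36 and 1.24 in PGC and 0.915 and 1.06 in SC. The E11.5 libraries of either cell type thus had the highest ratios and the E12.5 female libraries the lowest, a description with no test.

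The microRNAs most like the members were named by the Pearson correlation of log2(RPM + 1) over the 12 libraries, among 328 with a mean deposited value of at least 50. Such correlations describe shared patterns, and the libraries share depth, cell type and day. For miR-143-3p the closest were miR-1197-3p (r = 0.989), miR-377-3p (0.985), miR-380-3p (0.985), miR-380-5p (0.982) and miR-539-5p (0.981), and the median r over all 328 was 0.41. For miR-145a-5p they were miR-3099-3p (0.969), miR-493-3p (0.965), miR-433-5p (0.962), miR-127-3p (0.961) and miR-337-5p (0.953), with a median r of 0.22. Within the PGC libraries alone these r were 0.97 to 0.99 and 0.96 to 0.98. Within SC alone they were 0.65 to 0.98 and 0.25 to 0.77, so the likeness rests more on PGC. Mean PGC levels were 46.5 RPM for miR-1197-3p, 27.6 for miR-377-3p and 25.8 for miR-539-5p. They were 48.8 for miR-3099-3p, 33.8 for miR-493-3p and 34.1 for miR-433-5p. The 5-read floor was 29.98 RPM (female) and 27.1 RPM (male) at E12.5 in PGC. miR-380-3p, miR-380-5p, miR-127-3p and miR-337-5p had means of 160 to 3052 RPM. How far values listed at 0 shaped the r values was not tested. Leaving out the female E11.5 PGC library, r was 0.980 to 0.988 and 0.953 to 0.969, and the same 5 microRNAs came first for each member. On the deposited scale 2 of the 5 were among the closest 5 for miR-143-3p, and 2 of the 5 for miR-145a-5p. Their mature sequences are shown because 9 of these 10 come from a single imprinted locus and none shares a seed with another. The sequences were taken from RefSeq (GRCm38.p6) for all 10, and capitals mark the seed, bases 2 to 8, which pairs with target messages.
miR-1197-3p: uAGGACACauggucuacuucu
miR-377-3p: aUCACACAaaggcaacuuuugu
miR-380-3p: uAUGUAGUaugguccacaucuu
miR-380-5p: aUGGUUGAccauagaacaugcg
miR-539-5p: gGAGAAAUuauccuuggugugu
miR-3099-3p: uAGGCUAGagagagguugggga
miR-493-3p: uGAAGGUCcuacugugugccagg
miR-433-5p: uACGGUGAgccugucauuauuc
miR-127-3p: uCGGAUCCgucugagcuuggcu
miR-337-5p: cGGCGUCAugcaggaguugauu

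The 10 seeds printed above were all distinct. Except for miR-3099-3p on chromosome 7, the sequences lie on the plus strand of chr12:109580283-109740574, within the Dlk1-Dio3 domain, an imprinted region whose maternal chromosome expresses a large microRNA cluster. Of the 328 microRNAs compared, 58 (17.7%) map to a wider window of chromosome 12 that contains this stretch. They made up 14 of the first 20 in likeness to miR-143-3p and 16 of the first 20 for miR-145a-5p. Their median r was 0.87 with miR-143-3p and 0.84 with miR-145a-5p, against 0.12 and 0.04 outside the wider window. The chromosome 12 microRNAs share a locus with each other, so their r values are not separate observations.

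Markers of other cells fell at varied places in the same ranking. For miR-143-3p, the endothelial miR-126a-3p had r = 0.964 (place 12 of 328). The mesenchymal miR-199a-5p had 0.953 (place 15), miR-199a-3p 0.862 (place 49) and miR-214-3p 0.758 (place 86). For miR-145a-5p the order was another, with miR-214-3p at 0.939 (place 10), miR-199a-3p at 0.859 (place 39), miR-199a-5p at 0.830 (place 49) and miR-126a-3p at 0.827 (place 50). The gonadal somatic miR-202-5p had r = -0.05 with miR-143-3p and -0.10 with miR-145a-5p. Of the germ-cell list only miR-292a-5p was looked up. It lay near the other end of the ranking, with r = -0.84 for miR-143-3p and -0.77 for miR-145a-5p. It does not stand for the whole list, of whose 11 tested microRNAs 8 were higher and 2 lower in PGC as deposited.

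The members themselves were not alike to the same degree over the 12 libraries. The correlation was 0.88 between both miR-143 strands, 0.90 between both miR-145a strands, 0.83 between miR-143-3p and miR-145a-5p, and 0.85 between miR-143-3p and miR-145a-3p. miR-143-5p, with its zeros in the E12.5 PGC libraries, had 0.55 with miR-145a-5p and 0.53 with miR-145a-3p, and 0.30 and 0.31 within PGC. On the deposited scale the median r over all 328 rose to 0.90 for miR-143-3p and 0.85 for miR-145a-5p, so likeness on that scale separates microRNAs less.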

How the data were processed

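Small RNAs of under 100 bp were sequenced, 1 library for each of 12 conditions. Per the submitters' processing notes, FastQC, Trim Galore, Bowtie 1.1.2, GRCm38 and DESeq were used. How reads were counted, and against which annotation release, is not given in the sources used here. As deposited, each value is a signal that the authors made from a mature microRNA's count and a size factor of its library. Of the deposited values, 100% were whole multiples, at a tolerance of 1e-06, of the smallest value of a library divided by 5, and none stood for 1 to 4 reads. Reads and size factors (1.08 to 1.58 in PGC, 0.614 to 1.15 in SC) were recovered from this, and RPM were computed from the reads. Intervals are exact Clopper-Pearson intervals at 95% confidence. They cover counting error only, since amplified reads carry no molecular identifiers and need not be separate molecules.

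limma 3.58.1 in R 4.3.3 (empirical Bayes with trend) was fitted to log2(value + 1) for the 513 microRNAs with a mean deposited value of at least 5, with Benjamini-Hochberg adjustment over all of them and a threshold of 0.05. PGC and SC were compared with the day-by-sex pair as a block (5 residual degrees of freedom). Whether both fractions of a pair came from the same gonads is not given in the labels. The other 6 comparisons came from 1 fit with sex and day within each cell type (4 residual degrees of freedom). All 7 were repeated at equal totals. The fitting code was tested on simulated data. A fold change is on the log2(value + 1) scale, where the added 1 shrinks changes between low values above 0 and sets the size of a change to a value listed at 0.

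Named were the 4 members, miR-145b, the 5 most alike microRNAs for miR-143-3p and for miR-145a-5p, and up to 2 of each marker list. The members and lists were chosen with earlier results of these data known. Alternatives were quantile normalization, voom on recovered reads, a pseudocount of 5, no filter, no pair block and leaving out libraries. Leaving out both E12.5 PGC libraries, and the female E11.5 PGC library for lists and likeness, was chosen after seeing the data.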

Additional observations from a re-analysis of the deposited data

Results flagged for a closer look

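miR-145a-3p was the member whose change from E11.5 to E13.5 differed between PGC and SC by a test of the difference itself, at -5.00 on the log2 scale of deposited values (SE 1.30, limma adjusted p = 0.0497). The value depends on the added 1, because miR-145a-3p was listed at 0 in the male E13.5 PGC library. With a pseudocount of 5 it was -3.73 (adjusted p = 0.0547) and at equal totals -4.77 (adjusted p = 0.144). Its deposited values were 288 and 69.2 at E11.5 and 16.3 and 0 at E13.5 in PGC, and 742, 149, 441 and 218 in SC.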

How the results depend on the processing

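Over the members' fitted values and alternatives, 787 kept their direction and their side of the threshold, 62 lost a call, 3 gained one and 12 turned direction. These counts include comparisons in which no member passed, where no call could be lost. In PGC against SC at equal totals, miR-143-3p lost its call in 1 setting and kept it in 12. miR-145a-5p lost it in 3 and kept it in 10, miR-143-5p in 7 and 6, and miR-145a-3p in 9 and 4. With voom on recovered reads, 2 of 4 members passed in PGC against SC and 2 at E12.5 against E11.5 in PGC. The difference between the PGC and SC changes passed for 0 members at equal totals, with quantile normalization, voom, a pseudocount of 5, no filter, and without both E12.5 PGC libraries. At equal totals, leaving out both E12.5 PGC libraries left 0 members in PGC against SC. Without the pair block all 4 members passed there on the deposited scale.

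Leaving out 1 library at a time left 1 to 4 members for PGC at E13.5 against E11.5, 0 to 1 for the difference of changes on either scale, and 1 to 4 for PGC against SC at equal totals. Values that turned direction had these ranges. In SC over time they were -1.40 to 0.38 (miR-143-3p), -1.20 to 0.54 (miR-143-5p), -0.78 to 0.0123 (miR-145a-5p) and -0.95 to 0.75 (miR-145a-3p). Between the sexes at equal totals they were -0.39 to 0.0104 (miR-143-5p in PGC), -0.45 to 0.0543 (miR-143-3p in SC) and -0.43 to 0.0307 (miR-145a-5p in SC). The log2 ratio of miR-143-3p to miR-145a-5p had a PGC minus SC difference of -0.50 to 0.0332, and that to miR-143-5p of -0.0982 to 0.0933. The cause of these shifts was not tested.

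All calls in PGC against SC ranged from 136 to 442, and from 17 to 238 at equal totals. For PGC at E13.5 against E11.5 they ranged from 22 to 174, and from 93 to 149. Depth limits both passenger strands in PGC from E12.5 on, where counts were 0 to 23 reads.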
